A study of Mus musculus with 2 samples.

Results

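Solute carriers (Slc genes) encode membrane proteins that move amino acids, sugars, ions, metals, vitamins and nucleosides across the plasma membrane and the membranes of organelles. The genes described here were the protein-coding Slc genes of the deposited table, apart from the mitochondrial Slc25 carriers and 6 carriers described with other pathways (Slc2a1, Slc2a5, Slc7a2, Slc7a11, Slc11a1 and Slc40a1), and they were chosen by their counts, with a mean of at least 10 over the libraries. Of 318 such genes in the table, 156 passed the minimum and are called measured, out of 54532 genes in all. The other 162 were below it. Of these, 89 had no count in either library, which allows up to 0.192 CPM (counts relative to the TMM-scaled depth of their library) in the wild-type-labelled library and 0.158 CPM in the knockout-labelled library, taken as 3 counts each, and 73 had at least 1 count. The minimum used the counts themselves. Just inside it lay Slc4a5 with 8 and 12 counts and Slc16a5 with 7 and 15 counts, and just outside it lay Slc16a11 with 1 and 15 counts and Slc16a9 with 7 and 8 counts. A weakly expressed gene could pass through the library in which it was high, as Slc1a2 did with 0 and 32 counts, so counts and medians over the measured genes describe them and support nothing further.

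The series holds RNA-seq of RAW264.7 cells, a tumour-derived mouse line with macrophage properties, exposed for 3 h to lipopolysaccharide (LPS) at 100 ng/ml, a bacterial outer-membrane component that activates Toll-like receptor 4. There were 2 libraries, 1 labelled wild type (15573989 counts) and 1 labelled RNF138 knockout (19032311 counts), both from LPS-treated cells, and the labels do not say how the knockout was made or whether it is 1 clone. Rnf138, which encodes the targeted ubiquitin ligase, had 602 and 4764 counts and so went against the label, for which reason the groups are named by their labels throughout. An edited exon cannot be seen in gene-level counts, and whether the labels were exchanged was not tested. Exchanged labels would turn every higher and lower given here, the counts of 11 and 9 genes included. With 1 library per group no difference has a replicate check, and no test was made here. Ratios compare the scaled counts of the knockout-labelled library with those of the wild-type-labelled library, and their exact 95% intervals cover counting error only, as do those of a single level. PCR copies of a molecule cannot be recognised without molecular identifiers, so reads are not independent and the intervals cover less than the full technical error. All 10 macrophage markers examined were measured, Csf1r, Cd14 and Spi1 among them. Their levels were not alike in the 2 libraries, with sums of 3358 CPM in the wild-type-labelled and 4798 CPM in the knockout-labelled library. Relative to depth, Adgre1 and Fcgr1 were lower in the knockout-labelled library, and the other markers were higher there. Of 5 markers each, T cells, B cells, fibroblasts, epithelium, neutrophils, erythroid cells and endothelium had at most 2 measured, with summed levels of at most 6.83 CPM, and Cd3e, Pdgfra, Epcam, Mpo and Kdr were at 0 in both libraries. Mitochondrial transcripts took 3.21% and 2.34% of the counts. The part of these differences in the results below was not tested.

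In macrophages, solute carriers supply amino acids and glucose to activated cells, export lactate, move metals into or away from phagosomes, and empty lysosomes of the nucleosides, amino acids and peptides that come from digested material. Many amino acid exchangers work as pairs in which the shared heavy chain encoded by Slc3a2 carries a light chain of the Slc7 family to the cell surface. Others need no partner and sit in the endoplasmic reticulum, the Golgi apparatus or the lysosome.

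The measured solute carriers as a whole had nearly the same share of the transcriptome in both libraries, 1.07% and 1.06% of all counts. Of the 156 genes, the size rule was passed by 11 (7.05%) with the higher level in the knockout-labelled library and by 9 (5.77%) with the lower level there, which left 136. To pass, a gene needed a mean of 10 counts or more, a ratio 2-fold or more from 1, and an interval without 1. Among all 10785 measured protein-coding genes it was met by 5.61% in the higher and 3.21% in the lower direction, so the share of carriers was above the background in both, by more in the lower direction. A 1.5-fold limit was met by 20 carriers (12.8%) in the higher direction, against 12% of protein-coding genes, and by 19 (12.2%) in the lower, against 7.87%. An interval wholly beyond 2-fold was met by 4 (2.56%) and 3 carriers (1.92%), against 2.82% and 1.51%, and a 4-fold limit by 2 in each direction (1.28%), against 1.63% and 0.974%. The difference between these shares and the background was not tested. In bulk RNA, fewer cells expressing a gene and less RNA per cell cannot be told apart. The median log2 ratio was -0.02, against 0.02 over all measured protein-coding genes, and 79 of the 156 genes lay below 0, which is 50.6% against 48.5% of the protein-coding genes. Spread among genes was also alike. Over the 123 solute carriers with a mean of at least 100 counts the standard deviation of the log2 ratio was 0.51, against 0.53 over 8954 protein-coding genes. Of the 20 genes past the rule, 12 had at least 50 counts in their higher library, 7 of them higher and 5 lower. Exons of 27 carriers overlap those of another gene over more than 5% of their length, and since no strand setting is named, reads of overlapping genes cannot be told apart. Of the genes named below without a remark, this touches Slc7a7, Slc10a3, Slc11a2, Slc12a4, Slc15a4, Slc20a1, Slc29a1 and Slc37a1, by 6.3% to 13.1%.

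**Figure D1:**
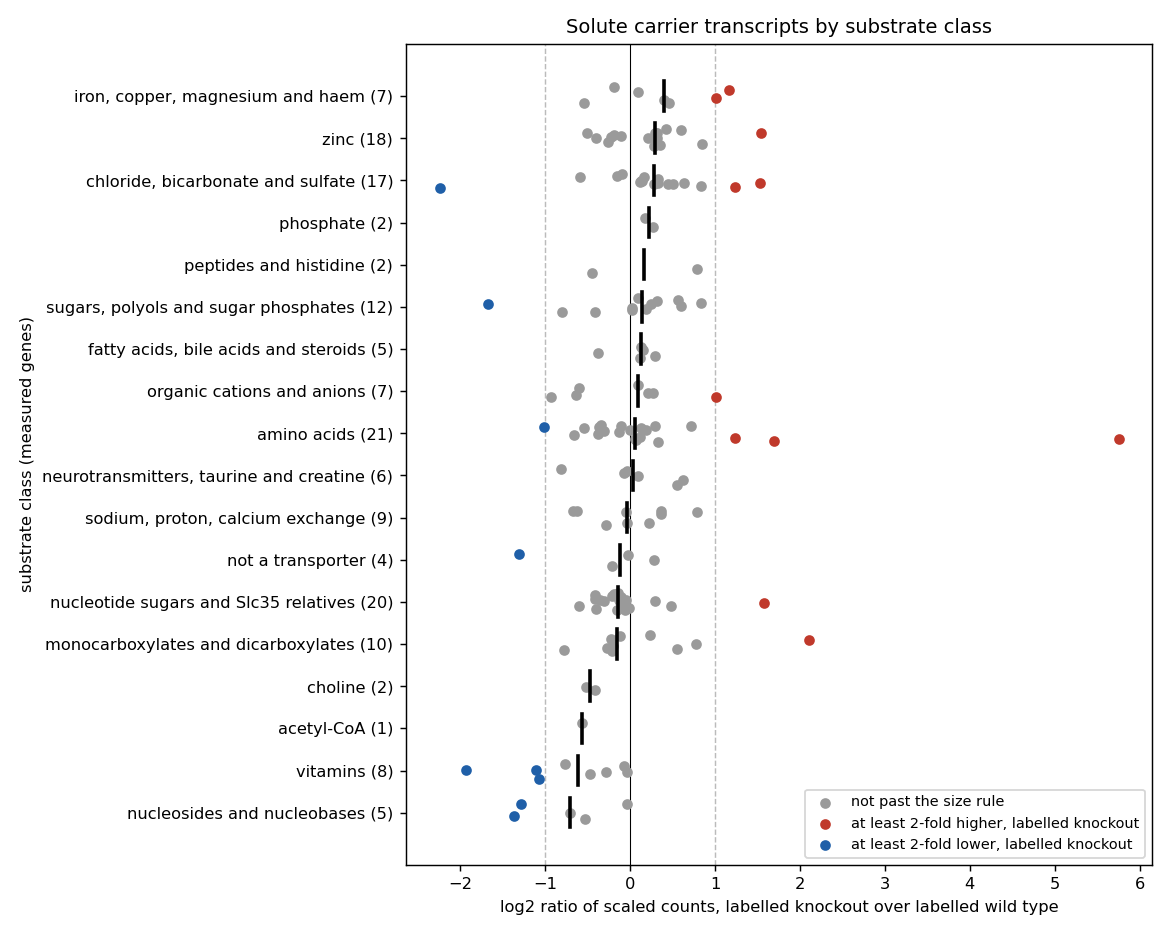
Log2 ratio of scaled counts, labelled knockout over labelled wild type (x axis), for each of the 156 measured solute carrier genes, by substrate class (y axis, number of measured genes in brackets). Each point is a gene, the black bar is the class median, dashed lines mark 2-fold, and the vertical scatter within a class only separates points; all 5 nucleoside and all 8 vitamin carriers lie left of 0, and the point near 5.75 is Slc1a2, with no count in the library labelled wild type.

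By level per transcript length, in the deposited FPKM (fragments scaled to gene length and depth), the most abundant measured carriers were largely shared. The ranks leave out the Slc25 carriers and the 6 carriers described with other pathways. Of these 6, Slc2a1 stood at 122 FPKM in the wild-type-labelled and 132 FPKM in the knockout-labelled library, above every gene ranked here. Of the 10 highest in each library, 7 were the same, and the 10 highest held 35.2% and 37.1% of the summed FPKM of the measured genes. Slc7a5 encodes the light chain LAT1 that imports leucine and other large neutral amino acids. Among the ranked genes it was the highest in the wild-type-labelled library and 6th in the knockout-labelled library, with 98.3 and 67.0 FPKM. Slc39a1, a zinc importer of the plasma membrane, was 4th and then the highest, with 78.8 and 119 FPKM. Slc2a6, a glucose transporter relative found on lysosomes, was 9th and 2nd, with 63.4 and 113 FPKM. Slc16a1, the lactate and pyruvate carrier MCT1, was 2nd and 5th, with 90.4 and 78.3 FPKM, and Slc1a5, the glutamine carrier ASCT2, was 3rd and 4th, with 78.9 and 85.6 FPKM.

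**Figure D2:**
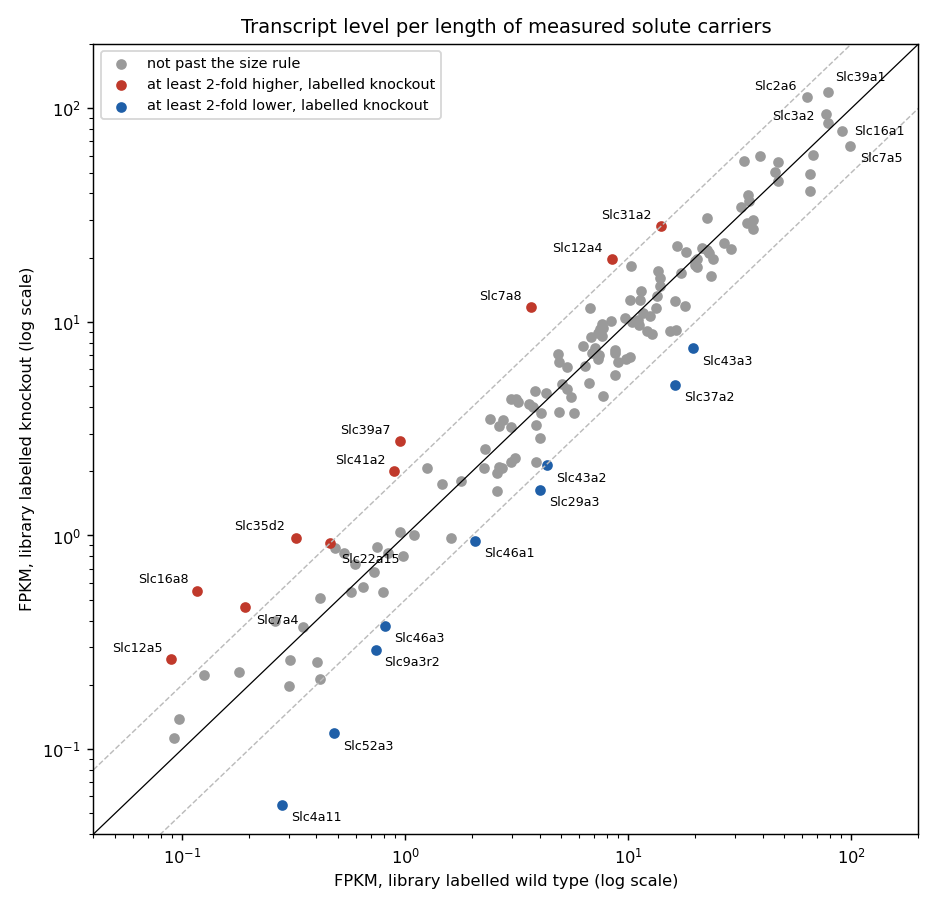
FPKM in the library labelled wild type (x axis) against FPKM in the library labelled knockout (y axis), both on log scales, for 155 measured solute carriers (Slc1a2, at 0 on the x axis, is left out). The solid line marks equal values and dashed lines 2-fold; genes past the size rule are named, with 5 of the most abundant, which lie within 2-fold.

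Amino acid carriers had the highest summed level of any class, 511 FPKM in the wild-type-labelled library and 481 FPKM in the knockout-labelled library over 21 measured of 50 genes, and their median log2 ratio was 0.05. Of the 21, 3 were past the rule and higher, 1 was lower and 17 were not past it. Among the light chains that pair with the Slc3a2 heavy chain, the exchangers of neutral amino acids lay on opposite sides of 1. Slc7a8, which encodes LAT2 (GRCm38 chromosome 14, 54722209 to 54781946), had 276 counts in the wild-type-labelled library and 1077 in the knockout-labelled library, or 17.6 CPM (interval 15.6 to 19.8) and 56.9 CPM (53.6 to 60.4). It was 3.23-fold higher in the knockout-labelled library (2.83 to 3.70), and its rank by FPKM among the measured carriers went from 100th to 48th. Slc7a5, the related LAT1, had 5486 and 4544 counts and was 1.46-fold lower in the knockout-labelled library (1.40 to 1.52), which is not past the rule. Even so, Slc7a5 stood at 67.0 FPKM and Slc7a8 at 11.8 FPKM in the knockout-labelled library, and their sum was 102 FPKM in the wild-type-labelled library and 78.7 FPKM in the knockout-labelled library. The heavy chain gene Slc3a2 itself had 4079 and 6042 counts and a count ratio of 1.23 (1.18 to 1.28). The light chain Slc7a6, an exchanger of arginine for neutral amino acids, had a count ratio of 1.04 (0.969 to 1.11) on 1473 and 1849 counts, an interval that includes 1. Slc7a7, the other member of that pair, was 1.28-fold lower (1.16 to 1.42) on 809 and 761 counts.

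Slc43a2, which encodes LAT4, a carrier of branched-chain amino acids that needs no heavy chain (GRCm38 chromosome 11, 75531694 to 75577575), had 653 counts in the wild-type-labelled library and 391 in the knockout-labelled library. At 41.7 CPM (interval 38.6 to 45.0) and 20.7 CPM (18.7 to 22.8) it was 2.02-fold lower in the knockout-labelled library (1.78 to 2.29), just past the limit, and Gm45606 lies over 9.2% of its exons on the opposite strand. The sodium-coupled glutamine carriers Slc38a1 and Slc38a2 were not past the rule. Slc38a2, the carrier that cells raise when amino acids run short, had 8690 and 6625 counts and was 1.59-fold lower (1.54 to 1.64), and Slc38a1 was 1.30-fold lower (1.26 to 1.34). These and the other genes given below that were neither past the rule nor among the 2 most abundant of their class were chosen after their values were seen. The cationic amino acid carrier Slc7a1 had a count ratio of 1.14 (1.11 to 1.18) on 5969 and 8249 counts. Slc38a9, the lysosomal arginine carrier that signals to mTORC1, had a count ratio of 1.001 (0.830 to 1.21) on 210 and 254 counts, with no direction, since its sign turned under each of 5 alternatives. The other amino acid genes past the rule had few counts in the wild-type-labelled library. Slc1a2, the glutamate carrier of glial cells, had 0 and 32 counts. The authors' deposited table lists it with a log2 fold change of 7.88, against 5.75 here with 0.5 counts added, and both depend on how the 0 was treated. It was 8.82-fold higher in the knockout-labelled library when the 0 was set to 3 counts, and at least 6.77-fold higher by its exact interval. Slc7a4, a cationic-carrier relative without an established substrate, had 12 and 35 counts and was 2.41-fold higher (1.22 to 5.11), with P2rx6 over 13.3% of its exons on the opposite strand.

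Nucleoside and nucleobase carriers lay below 0 without exception among the 5 measured of 9 genes, with a median log2 ratio of -0.70 and a summed level of 55.4 FPKM in the wild-type-labelled library and 36.6 FPKM in the knockout-labelled library. The 2 genes past the rule were both lower. Slc43a3 (GRCm38 chromosome 2, 84936579 to 84958509), which encodes a purine nucleobase carrier of the plasma membrane despite its place in an amino acid carrier family, had 1316 counts in the wild-type-labelled library and 615 in the knockout-labelled library, or 84.0 CPM (interval 79.6 to 88.7) and 32.5 CPM (29.97 to 35.2), and was 2.59-fold lower in the knockout-labelled library (2.35 to 2.85). Slc29a3 (GRCm38 chromosome 10, 60712072 to 60752794) encodes ENT3, which releases nucleosides from lysosomes and whose loss in humans causes histiocyte disorders. It had 353 counts in the wild-type-labelled library and 175 in the knockout-labelled library, or 22.5 CPM (interval 20.3 to 25.0) and 9.25 CPM (7.93 to 10.7), and was 2.44-fold lower in the knockout-labelled library (2.03 to 2.94). The plasma membrane carrier of the same family, Slc29a1 or ENT1, was the most abundant of the class at 20.4 and 19.8 FPKM and had a count ratio of 0.975 (0.903 to 1.05), an interval that includes 1. Slc29a2 was 1.44-fold lower (1.24 to 1.69) on 363 and 304 counts, and Slc17a9, the vesicular nucleotide carrier that loads ATP, was 1.63-fold lower (1.14 to 2.34) on 77 and 57 counts. The concentrative nucleoside carrier gene Slc28a2 was below the minimum, with 0 and 13 counts.

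Vitamin carriers also all lay below 0, with 8 measured of 13 genes and a median log2 ratio of -0.62. Summed levels were 74.2 FPKM in the wild-type-labelled library and 59.4 FPKM in the knockout-labelled library. None was past the rule and higher, 3 were lower and 5 were not past it. The 3 were weakly expressed, and over the 5 genes with a mean of at least 100 counts the median log2 ratio was -0.28. Slc46a1 (GRCm38 chromosome 11, 78465697 to 78472059), the proton-coupled folate carrier, had 95 counts in the wild-type-labelled library and 53 in the knockout-labelled library, or 6.07 CPM (interval 4.91 to 7.42) and 2.80 CPM (2.10 to 3.66), and was 2.17-fold lower in the knockout-labelled library (1.53 to 3.09). Its lysosomal relative Slc46a3, counted in the class with the rest of its family, was 2.13-fold lower (1.14 to 4.12) on 30 and 17 counts. The riboflavin carrier Slc52a3 was 4.03-fold lower (1.56 to 12.3) on 20 and 6 counts. Their more abundant counterparts were closer to 1. Slc19a1, the reduced folate carrier, stood at 19.9 and 19.4 FPKM with a count ratio of 0.976 (0.908 to 1.05), and the riboflavin carrier Slc52a2 had a count ratio of 0.954 (0.855 to 1.06) on 613 and 707 counts. Slc23a2, the ascorbate carrier and most abundant gene of the class, had 2877 and 2862 counts and was 1.22-fold lower (1.15 to 1.28). The thiamine carrier Slc19a2 was 1.70-fold lower (1.53 to 1.88) on 893 and 636 counts.

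**Figure D3:**
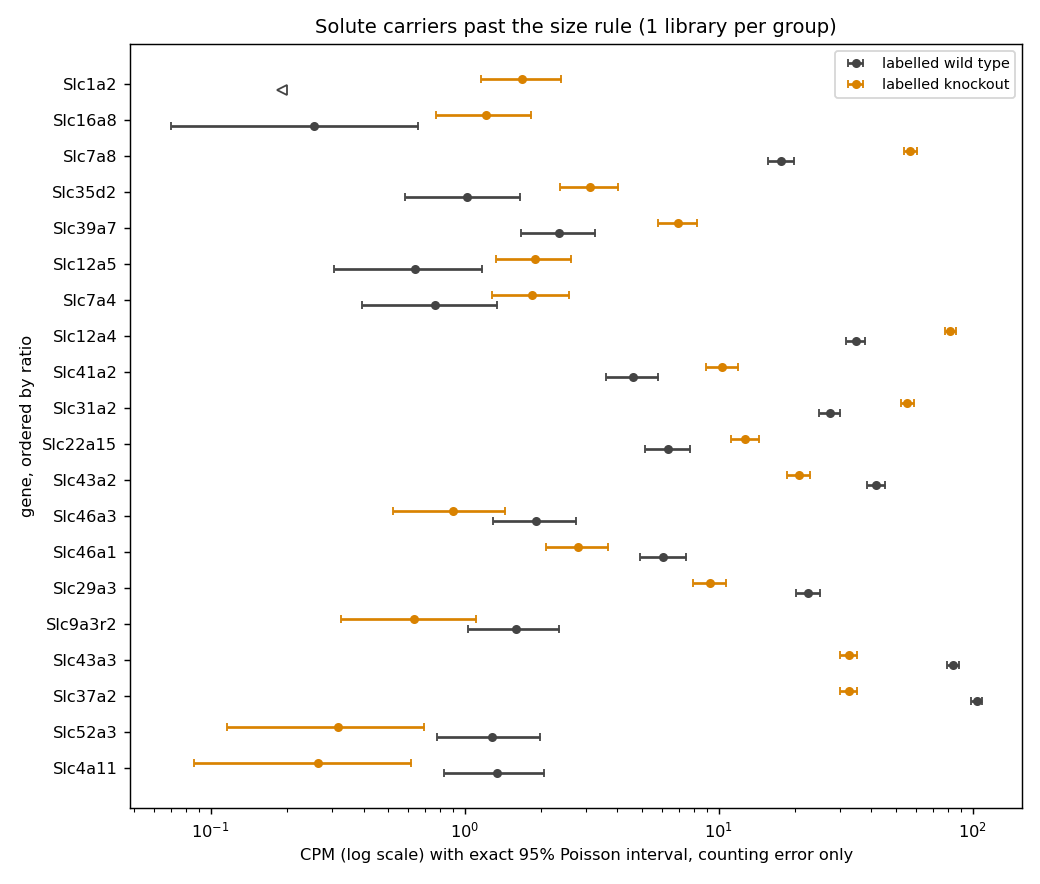
CPM (x axis, log scale) of the 20 solute carrier genes past the size rule (y axis, ordered by ratio) in the library labelled wild type (dark) and the library labelled knockout (orange), 1 library each. Bars are exact 95% Poisson intervals of counting error, and only 9 genes reach 10 CPM in either library. The open triangle for Slc1a2 is at 0.192 CPM, its count of 0 taken as 3 counts. Its exact Poisson interval would reach 0.236 CPM.

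Sugar carriers stood at 127 FPKM in the wild-type-labelled library and 168 FPKM in the knockout-labelled library in sum over 12 measured of 27 genes. Slc2a6 held 49.9% of the sum in the former and 67.0% in the latter. These sums and shares leave out the glucose carrier Slc2a1, which alone stood at 122 FPKM in the wild-type-labelled and 132 FPKM in the knockout-labelled library. Slc2a6 had 3063 and 6629 counts and a count ratio of 1.79 (1.72 to 1.87), short of the 2-fold limit. The gene past the rule went the other way. Slc37a2 (GRCm38 chromosome 9, 37227585 to 37255738) encodes a glucose-6-phosphate and phosphate exchanger of the endoplasmic reticulum that macrophages and osteoclasts express strongly. It had 1623 counts in the wild-type-labelled library and 615 in the knockout-labelled library, or 104 CPM (interval 98.7 to 109) and 32.5 CPM (29.97 to 35.2), and was 3.19-fold lower in the knockout-labelled library (2.91 to 3.51), the lowest ratio among carriers with at least 50 counts in the higher library. Of its 3 paralogs, Slc37a4, the glucose-6-phosphate carrier of the glucose-6-phosphatase system, had a count ratio of 1.01 (0.844 to 1.22), Slc37a1 had a count ratio of 1.48 (1.27 to 1.73) and Slc37a3 had a count ratio of 1.24 (1.04 to 1.48). The myo-inositol carrier Slc5a3 was 1.74-fold lower (1.54 to 1.97) on 635 and 442 counts. Slc50a1, of the SWEET sugar carriers, had a count ratio of 1.07 (0.917 to 1.24) at 13.9 and 14.8 FPKM.

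Monocarboxylate and dicarboxylate carriers had a median log2 ratio of -0.16 over 10 measured of 17 genes, of which 1 was higher and 9 were not past the rule. The lactate carriers of activated macrophages differed little. Slc16a1 had 6022 and 6344 counts and was 1.15-fold lower (1.11 to 1.19), and Slc16a3, the lactate exporter MCT4, had 2732 and 2833 counts and was 1.17-fold lower (1.11 to 1.23). Bsg, which encodes the chaperone that brings both to the cell surface, had a ratio of 1.19 (1.14 to 1.24) on 3330 and 4789 counts. The gene past the rule was Slc16a8, the carrier MCT3 of the retinal pigment epithelium, with 4 and 23 counts and a count ratio of 4.76 (1.63 to 18.9). Slc16a12, a creatine carrier, was 1.72-fold lower (1.49 to 1.98) on 472 and 332 counts, and the creatine importer Slc6a8 was 1.76-fold lower (1.62 to 1.92) on 1278 and 877 counts. Slc6a8 belongs to the 6 measured carriers of neurotransmitters, taurine and creatine, none past the rule. Of these the taurine carrier Slc6a6 had a count ratio of 0.977 (0.944 to 1.01) on 5972 and 7055 counts, and the betaine carrier Slc6a12 had a count ratio of 1.54 (1.45 to 1.63) on 1785 and 3323 counts.

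Carriers of iron, copper, magnesium and haem had a median log2 ratio of 0.40 over the 7 genes of the class kept in the group. Of these, 2 were past the rule and higher, none was lower and 5 were not past it. The metal carriers Slc11a1 and Slc40a1, left out of the group, were both past the rule and lower, with ratios of 0.427 and 0.489. Slc31a2 (GRCm38 chromosome 4, 62262562 to 62298411), which encodes the copper carrier CTR2 of late endosomes and lysosomes, had 429 counts in the wild-type-labelled library and 1048 in the knockout-labelled library, or 27.4 CPM (interval 24.9 to 30.1) and 55.4 CPM (52.1 to 58.8), and was 2.02-fold higher in the knockout-labelled library (1.805 to 2.27). Slc31a1, the high-affinity copper importer CTR1, was 1.14-fold lower (1.07 to 1.22) on 1734 and 1831 counts. Slc41a2 (GRCm38 chromosome 10, 83230848 to 83337882), a magnesium carrier, had 72 and 196 counts, or 4.60 CPM (interval 3.60 to 5.79) and 10.4 CPM (8.96 to 11.9), and was 2.25-fold higher (1.71 to 2.99), and its paralog Slc41a1 had a count ratio of 1.32 (1.12 to 1.56). Slc48a1, which takes haem out of the phagolysosome after red cells are digested, was the most abundant of the class at 34.9 and 36.9 FPKM with a count ratio of 1.06 (0.993 to 1.14). Slc11a2, the iron importer DMT1, had a count ratio of 1.37 (1.29 to 1.46) on 1587 and 2634 counts.

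Zinc carriers had a median log2 ratio of 0.30 over 18 measured of 24 genes, with 1 past the rule, which was higher. The importers of the Slc39 family lay above 0 in 9 of 12 genes, with a median of 0.31, and the exporters of the Slc30 family in 3 of 6, with a median of 0.09. Slc39a1 had 2803 and 5144 counts and a count ratio of 1.52 (1.45 to 1.59) and gave 34.0% and 43.9% of the summed FPKM of the class. Slc39a6, the next by level, was 1.20-fold lower (1.13 to 1.27) on 2228 and 2243 counts, and the Golgi exporter Slc30a5 was 1.42-fold lower (1.34 to 1.51) on 2573 and 2186 counts. Slc39a14, an importer of zinc and iron, had a count ratio of 1.248 (1.17 to 1.33) on 1617 and 2440 counts. The gene past the rule was Slc39a7 (GRCm38 chromosome 17, 34028267 to 34031690), which encodes the zinc carrier ZIP7 of the endoplasmic reticulum, with 37 counts in the wild-type-labelled library and 131 in the knockout-labelled library, or 2.36 CPM (interval 1.66 to 3.26) and 6.92 CPM (5.79 to 8.21), a ratio of 2.93 (2.02 to 4.34). That value is uncertain, since the annotated transcript Gm20427 covers 80.7% of its exons on the same strand and reads of shared exons cannot be assigned to one of them.

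Carriers of chloride, bicarbonate and sulfate had a median log2 ratio of 0.28 over 17 measured of 33 genes, with 2 past the rule and higher, 1 lower and 14 not past it, and 13 of the 17 above 0. Slc12a4 (GRCm38 chromosome 8, 105943590 to 105966097), the potassium-chloride cotransporter KCC1 that lets swollen cells lose volume, had 544 counts in the wild-type-labelled library and 1544 in the knockout-labelled library, or 34.7 CPM (interval 31.9 to 37.8) and 81.6 CPM (77.6 to 85.7), and was 2.35-fold higher in the knockout-labelled library (2.13 to 2.59). Slc12a2, the sodium-potassium-chloride cotransporter NKCC1 that works in the opposite sense, had 1763 and 1412 counts and was 1.51-fold lower (1.41 to 1.62), not past the rule. Neuronal KCC2, encoded by Slc12a5, was 2.98-fold higher (1.45 to 6.73) on 10 and 36 counts. The borate carrier relative Slc4a11 had 21 and 5 counts and was 5.08-fold lower (1.86 to 17.2). Among the abundant bicarbonate carriers, the sodium-bicarbonate cotransporter gene Slc4a7 had a count ratio of 1.37 (1.32 to 1.42) on 5178 and 8559 counts, and the anion exchanger gene Slc4a2 had a count ratio of 1.78 (1.67 to 1.91) on 1285 and 2768 counts, with Fastk over 13.7% of its exons on the opposite strand. None of 9 measured exchangers of sodium, protons and calcium was past the rule. The median of their log2 ratios was -0.04. Slc24a5, the most abundant of them, had a count ratio of 1.28 (1.14 to 1.44) on 478 and 741 counts, but Myef2 lies over 39.5% of its exons on the opposite strand. The next, the mitochondrial sodium-calcium exchanger Slc8b1, had a count ratio of 0.968 (0.862 to 1.09).

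Nucleotide-sugar carriers of the Slc35 family supply the Golgi apparatus and the endoplasmic reticulum with building blocks of glycans. The class held the whole Slc35 family, relatives of these carriers included. Of 20 measured of 27 Slc35 genes, 17 lay below 0, and the median log2 ratio was -0.14. The most abundant, Slc35a4, had 3328 and 3641 counts and was 1.10-fold lower (1.05 to 1.16), and Slc35b1, which brings ATP into the endoplasmic reticulum, was 1.32-fold lower (1.21 to 1.43). The CMP-sialic acid carrier Slc35a1 and the UDP-galactose carrier Slc35a2 were 2 of the 3 above 0, with ratios of 1.23 (1.08 to 1.40) and 1.40 (1.19 to 1.66). The third, Slc35d2, a carrier of UDP-N-acetylglucosamine and related sugars (GRCm38 chromosome 13, 64096308 to 64129368), was past the rule with 16 and 59 counts, or 1.02 CPM (interval 0.584 to 1.66) and 3.12 CPM (2.37 to 4.02), and was 3.05-fold higher (1.73 to 5.68).

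The endolysosomal carriers of histidine and small peptides, which also pass bacterial muramyl peptides to the cytosol, lay on opposite sides of 1. Slc15a3 had 2719 and 5674 counts and a count ratio of 1.73 (1.65 to 1.81), with Tmem132a over 28.1% of its exons on the opposite strand. Slc15a4, which also recruits the adaptor TASL for signalling from endosomal Toll-like receptors, had 716 and 634 counts and was 1.37-fold lower (1.22 to 1.52). Neither was past the rule. Both choline carriers were lower without passing it, Slc44a1 by 1.33-fold (1.28 to 1.38) and Slc44a2 by 1.44-fold (1.34 to 1.55). The phosphate importers Slc20a1 and Slc20a2 had ratios of 1.20 (1.15 to 1.253) and 1.13 (1.03 to 1.247). Slc33a1, which carries acetyl-CoA into the endoplasmic reticulum, was 1.48-fold lower (1.30 to 1.68), with Gm26850 over 32.0% of its exons on the opposite strand. None of 5 measured carriers of fatty acids, bile acids and steroids was past the rule. The fatty acid carrier Slc27a1 gave 72.7% and 74.0% of their summed FPKM and had a count ratio of 1.11 (1.07 to 1.16), and Slc10a3, a bile acid carrier relative, had a count ratio of 1.09 (0.931 to 1.27). Of 7 measured carriers of organic cations and anions, Slc22a15 (GRCm38 chromosome 3, 101855776 to 101924453) was past the rule with 99 and 241 counts, or 6.32 CPM (interval 5.14 to 7.70) and 12.7 CPM (11.2 to 14.4), and was 2.01-fold higher in the knockout-labelled library (1.59 to 2.57). The lysosomal sialic acid carrier Slc17a5 had a count ratio of 1.07 (0.936 to 1.23) and the carnitine carrier Slc22a5 a count ratio of 1.16 (0.948 to 1.43). Some genes bear an Slc name without encoding a carrier. Of 4 of these, the scaffold gene Slc9a3r2 was 2.52-fold lower (1.22 to 5.50) on 25 and 12 counts, its relative Slc9a3r1 was 1.16-fold lower (0.999 to 1.34), and Slc7a6os had a count ratio of 0.987 (0.900 to 1.08).

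**Figure D4:**
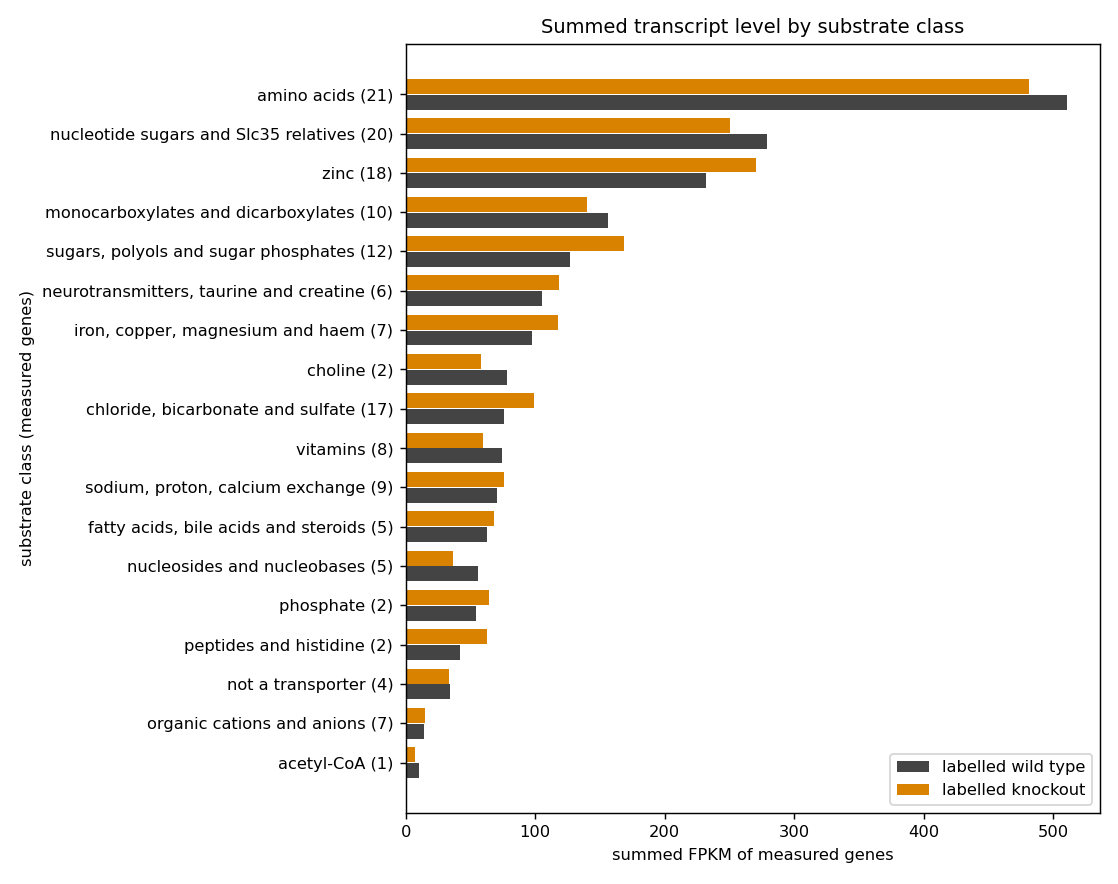
Summed FPKM of the measured genes (x axis) of each substrate class (y axis, number of measured genes in brackets) in the library labelled wild type (dark) and the library labelled knockout (orange). Longer orange bars belong to sugar, zinc, chloride and bicarbonate, peptide, metal, phosphate, neurotransmitter, organic ion, fatty acid, and sodium, proton and calcium carriers. Longer dark bars belong to amino acid, Slc35, monocarboxylate, choline, vitamin, nucleoside and acetyl-CoA carriers and to the genes that are not transporters. Single genes weigh heavily in some bars. Of the dark and orange bars, Slc2a6 gives 49.9% and 67.0% for sugars, Slc39a1 34.0% and 43.9% for zinc, and Slc15a3 78.6% and 89.6% for peptides. The bars leave out the 6 carriers described with other pathways, Slc2a1 (122 and 132 FPKM) among them. They carry no error since each group has 1 library.

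Other transporters gave a frame for these counts. Of 37 measured Slc25 mitochondrial carriers, 2 were past the rule and higher and none was lower, with a median log2 ratio of 0.06. Of 26 measured ABC transporters, which use ATP to pump their substrates, 1 was higher and none was lower, with a median of 0.04. Whether those shares differ from the 11 and 9 of 156 was not tested. Of the 6 carriers left out of the group, 4 were measured and 2 were lower, the phagosomal metal carrier Slc11a1 (785 and 405 counts, ratio 0.427, interval 0.378 to 0.482) and the iron exporter Slc40a1 (967 and 571 counts, ratio 0.489, interval 0.440 to 0.542). The glucose carrier Slc2a1 had a ratio of 1.09 (1.05 to 1.12) on 6455 and 8480 counts. Of 15 measured proteins that partner, traffic or regulate carriers, 2 were higher and none was lower. These were Emb, a chaperone of lactate carriers, with 11 and 36 counts, a ratio of 2.71 (1.35 to 5.90), and the ubiquitin ligase gene Nedd4l, which removes several carriers from the membrane, with 53 and 199 counts, a ratio of 3.11 (2.28 to 4.29).

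Genes near the carriers past the rule were examined within 1 Mb. Around Slc7a8, 35 of 47 other measured genes lay above 0 with a median log2 ratio of 0.35, and 10 were past the rule and higher, as were 6.54% of all measured genes. Around Slc22a15 7 of 8 others lay above 0 with a median of 0.35, around Slc41a2 11 of 16 with a median of 0.30, and around Slc39a7 51 of 75 with a median of 0.29. Past the rule and higher were 1 of 8, 3 of 16 and 7 of 75 of these, in that order. The windows named so far had the highest medians, and the median over all measured genes was 0.02. Over the windows of all 20 carriers the medians ran from -0.19 around Slc1a2 to 0.35 around Slc7a8. Fewer neighbours went the way of the carrier around Slc1a2 (3 of 11), Slc4a11 (11 of 29) and Slc9a3r2 (19 of 55). Around Slc43a3 and Slc29a3, none of 11 and none of 19 others was past the rule and lower, and 2 of 16 around Slc37a2 were, as were 3.62% of all measured genes.

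Promoter windows from RefSeq (GRCm38.p6, from 250 bases before to 50 after a gene's start) were at hand for 119 of the 156 measured carriers and for 15 of the 20 past the rule. Patterns were searched on both strands: GAAA, any 2 bases and GAAA for the interferon-stimulated response element, GGGA, any 4 bases and CC for NF-kappaB, TGANTCA for AP-1, TGATGNAA for ATF4, which activates amino acid carriers under stress, and CACGTG for the E-box. Of the 15, none held the interferon pattern, which is in 3.44% of all 32851 windows, and none held the ATF4 pattern, which is in 3.97%. Over the 119 carriers the interferon pattern was in 1 (0.840%), against 3.83% of measured protein-coding genes. The ATF4 pattern was in 5 of the 119 (4.20%), against 2.76% of measured protein-coding genes. The NF-kappaB pattern was in 40 of the 119 carriers (33.6%), against 30.1% of measured protein-coding genes, and in 20.7% of all windows. The E-box was in 21 of the 119 (17.6%), against 12.1% of measured protein-coding genes, and in 7.15% of all windows, and AP-1 in 11 (9.24%) against 5.94%, and in 7.81% of all windows. A match is a description of the letters and not a site shown to be bound. The 15 were 9 higher and 6 lower genes. Among them NF-kappaB was in 2 higher and 1 lower, AP-1 in 1 and 2, and the E-box in 2 and 0. The well-counted Slc7a8, Slc29a3, Slc39a7, Slc41a2, Slc43a2 and Slc46a1 held no pattern. Slc22a15, also well counted, held the NF-kappaB pattern and is not printed. The 3 windows printed here belong to other well-counted genes past the rule that hold a pattern, 1 lower and 2 higher in the knockout-labelled library. Matching letters are in capitals (AP-1 in Slc37a2, NF-kappaB in Slc12a4, the E-box in Slc31a2).
Slc37a2 promoter, chr9:37255689-37255988, minus strand: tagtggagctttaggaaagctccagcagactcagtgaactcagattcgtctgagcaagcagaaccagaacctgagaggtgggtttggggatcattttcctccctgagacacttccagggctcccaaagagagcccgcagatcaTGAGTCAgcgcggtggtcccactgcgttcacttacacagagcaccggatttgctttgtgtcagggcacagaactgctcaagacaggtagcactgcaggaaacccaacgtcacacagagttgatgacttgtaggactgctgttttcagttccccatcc
Slc12a4 promoter, chr8:105966066-105966365, minus strand: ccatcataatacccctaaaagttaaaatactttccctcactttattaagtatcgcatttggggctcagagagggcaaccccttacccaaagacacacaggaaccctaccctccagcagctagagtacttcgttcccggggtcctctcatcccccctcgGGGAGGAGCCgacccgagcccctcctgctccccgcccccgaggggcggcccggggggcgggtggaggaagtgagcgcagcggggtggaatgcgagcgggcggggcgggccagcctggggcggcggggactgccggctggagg
Slc31a2 promoter, chr4:62286179-62286478, plus strand: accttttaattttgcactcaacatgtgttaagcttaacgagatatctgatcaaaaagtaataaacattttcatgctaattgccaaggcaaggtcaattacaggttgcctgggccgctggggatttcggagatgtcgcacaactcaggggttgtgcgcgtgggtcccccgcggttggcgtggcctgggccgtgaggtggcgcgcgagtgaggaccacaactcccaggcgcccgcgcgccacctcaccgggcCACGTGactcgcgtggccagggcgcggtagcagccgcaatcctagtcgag
The Slc37a2 window holds its match before the start and contains none of the other patterns. The Slc31a2 window has its E-box at the start given by RefSeq, and the Slc12a4 window has its match before its own start. That Slc31a2 start lies inside the deposited span of the gene (62262562 to 62298411, plus strand), downstream of the gene start used for the counts.

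The authors' deposited table gives its own log2 fold changes, which differed by at most 0.0316 from the log2 ratios without added counts for the carriers other than Slc1a2, and adjusted p-values made without replicates by a tool the sources used here do not name. Of the 156 carriers, 3 had an adjusted p under 0.05 in the authors' deposited table, namely Slc1a2 (0.000105), Slc37a2 (0.00685) and Slc7a8 (0.00706), out of 417 genes of 18843 with a value, and these p-values measure no replicate spread.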

How the data were processed

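Per the labels' protocols, RNA was extracted with Trizol, primed by random hexamers and PCR-amplified. The strand setting of the counting is not given in the sources at hand. The authors deposited raw counts per gene, made on GRCm38 with HISAT2 2.0.5, featureCounts 1.5.0-p3 and CASAVA 1.8 per the submitters' processing notes. FPKM, a signal of counts scaled between the libraries, log2 fold changes and p-values are further columns the authors deposited. Here libraries were scaled with TMM factors (1.01 and 0.995) from edgeR 4.0.16 in R 4.3.3. No count test was run, since each group had 1 library. CPM values have exact Poisson and ratios exact Clopper-Pearson intervals at 95%. At 100 counts a Poisson interval reaches 21.6% from the value. Log2 ratios had 0.5 counts added.

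The members, substrate classes, lists and named-gene rule were chosen with earlier results of these data known. Genes named by rule were those past the size rule, with full values from 50 counts in the higher library, the 2 of highest mean FPKM in classes with at least 4 measured genes, and 7 carriers with a known partner or pair. Other carriers named were chosen after their values were seen. Exon overlap came from GENCODE M21, in which all 156 identifiers were found, 149 of them with the deposited gene coordinates. Slc39a7 and Slc9a3r2, both past the rule, were not among the 149. The procedure was tested on simulated Poisson counts without replicate spread, so the simulation cannot check differences between single libraries. Alternatives used total-count, upper-quartile and DESeq2 1.42.0 scaling, other count minimums, fold limits, interval rules, added counts, FPKM and means.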

Additional observations from a re-analysis of the deposited data

How the results depend on the processing

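The count of carriers past the size rule stayed within 1.5 times of 11 higher and 9 lower under DESeq2, total-count and upper-quartile scaling, no count minimum and no interval. Slc22a15 and Slc31a2, at 2.01-fold and 2.02-fold, were no longer past it under total counts or upper-quartile factors, which left 9 higher. With a minimum mean count of 100 there were 5 higher (4.07%) and 4 lower (3.25%), against 3.21% and 1.65% of protein-coding genes. A 1.5-fold limit gave 20 higher and 19 lower (against 12% and 7.87%), a 4-fold limit gave 2 and 2 (1.28% each, against 1.63% and 0.974%), and intervals wholly beyond 2-fold gave 4 and 3 (against 2.82% and 1.51%). The median over carriers lay between -0.04 and 0.10 under every alternative run. On log2 of FPKM plus 1, which shrinks ratios of weak genes, the median of chloride, bicarbonate and sulfate carriers was 0.0855. With a minimum mean count of 100, the vitamin median was -0.28 over 5 genes, from -0.62 over 8. The nucleoside median was -0.91 over 4 genes, from -0.70 over 5. Of 98 class medians under alternatives, 95 kept their sign. The exceptions were fatty acid carriers at -0.37 and sodium, proton and calcium exchangers at 0.36 without a count minimum, and neurotransmitter carriers at -0.00 on FPKM. Of 780 values of the 156 carriers under 5 alternatives, 775 kept their sign, the other 5 being those of Slc38a9 (-0.02 to -0.00, from 0.00), and another scaling moved none by more than 0.018. Values of 14 carriers left their counting interval on log2 of FPKM plus 1, 13 of them past the rule. Slc1a2 went from 5.75 to 0.18, Slc16a8 from 2.11 to 0.47, Slc22a15 from 1.01 to 0.40, Slc39a7 from 1.54 to 0.95 and Slc43a2 from -1.01 to -0.77. With 5 counts added, Slc1a2 was 2.61. Depth limits the 8 genes past the rule with under 50 counts in each library. No paired analysis was possible because each group has 1 library.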
